A study of Mus musculus with 13 samples.

Results

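The genes described here code for enzymes of 2 mitochondrial pathways, the tricarboxylic acid (TCA) cycle with its entry from pyruvate, and the oxidation of fatty acids. They are 47 genes chosen by symbol, 24 for pyruvate and the TCA cycle and 23 for fatty acid oxidation, and each of them was found among the 27111 gene names of the deposited count table. Their transcripts were measured in Sertoli cells of 13 adult male mice (3 to 5 months old by the study's methods). The mice were of the C57Bl/6J strain, labelled Bl6 wt (wild type), with no transgene named. The 6 control males grew up undisturbed, and the 7 MSUS males were taken away from their mother for 3 h a day at unpredictable times between postnatal day 1 and 14, while the mother was exposed to a cold swim or to restraint in a tube (MSUS, separation from the mother at unpredictable times together with unpredictable stress of the mother). Cells of adult testis were sorted as diploid, large and high in MitoTracker signal, a dye that accumulates in mitochondria, so the sort itself selected on mitochondrial content in every sample. Litters and cages of these mice were not used here, so the tests treat the 13 mice as independent. Whether littermates are among them was not examined.

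Sertoli cells are the somatic nurse cells of the seminiferous tubule. They are known for converting glucose to lactate, which they export to germ cells, and for covering much of their own energy need by oxidizing fatty acids, in part from germ cell remnants that they engulf. Fatty acids are activated to acyl-CoA, carried into mitochondria as carnitine esters and shortened in a spiral of dehydrogenation, hydration, a second dehydrogenation and thiolysis. The acetyl-CoA released, like that made from pyruvate by the pyruvate dehydrogenase complex, is oxidized in the TCA cycle, and the electrons pass to the respiratory chain.

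Total estimated counts per sample ranged from 12701664 to 18649819, of which 9776853 to 14383367 fell on genes with a name, and the 47 genes held between 0.341% and 0.388% of these. The 5 Sertoli cell markers had a mean level of 10.18 ± 0.10 (SD, n = 6) in control and 10.14 ± 0.10 (SD, n = 7) in MSUS samples, where levels are log2 CPM, counts scaled to the size of the library, after TMM normalization. Transcripts of other cells were present as well. All 4 markers of elongated spermatids (*Prm1*, *Prm2*, *Tnp1*, *Tnp2*) were detected, with mean levels between 7.50 and 8.15 in controls and between 7.26 and 8.55 in MSUS samples, and all 4 had a positive log2 fold change (MSUS against control, median 0.19). The 4 spermatocyte markers had means of 4.94 to 5.44 in controls and 4.20 to 5.56 in MSUS samples, and all 4 had a negative one (median -0.31). Of the peritubular myoid markers the 3 tested had positive values (median 0.59), with means of the list of 0.079 to 2.90 in controls and 0.34 to 3.61 in MSUS samples. Positive values were also found for 3 of 4 Leydig (median 0.34), 3 of 4 endothelial (0.20) and 3 of 4 round spermatid markers (0.18), and negative ones for the 3 tested spermatogonial markers (-0.03). Of all these, 1 spermatocyte marker, *Sycp2*, had a limma voom p under 0.05. Of the 4 macrophage markers *Csf1r*, *Adgre1* and *Cd68* had 0 to 10 counts per sample, whereas *Mrc1* had 3962 to 6974. The part of these cells in the results was examined for elongated spermatids alone, with their markers as a covariate, and was not tested for the others. *Malat1*, a nuclear long noncoding RNA, was at 9.93 ± 0.56 (SD, n = 6) in control and 10.62 ± 0.43 (SD, n = 7) in MSUS samples, and mitochondrially encoded genes held 1.98% ± 0.42 (SD, n = 6) and 2.48% ± 0.57 (SD, n = 7) of the named counts. For the sequenced cohort the paper reports a significant difference in mitochondrial copy number between MSUS and control preparations. It proposes that this might account for the variable changes of mitochondrially encoded genes. In such bulk samples, fewer cells of a type and less RNA per cell cannot be told apart.

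To compare genes with each other in control samples, levels were divided by the length of the union of a gene's exons. In these units (log2 CPM per kb), the TCA cycle genes had a median of 3.79 and the fatty acid oxidation genes of 3.45, against 2.36 over the 13379 genes tested that have a length. The range within each pathway was wide, from 5.97 to -2.61 in the first and from 6.24 to -0.23 in the second. Most neighbours in the order were close: only 11 of the 23 neighbouring pairs of TCA cycle genes and 9 of the 22 of fatty acid oxidation genes kept their order in all 6 control samples.

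**Figure D1:**
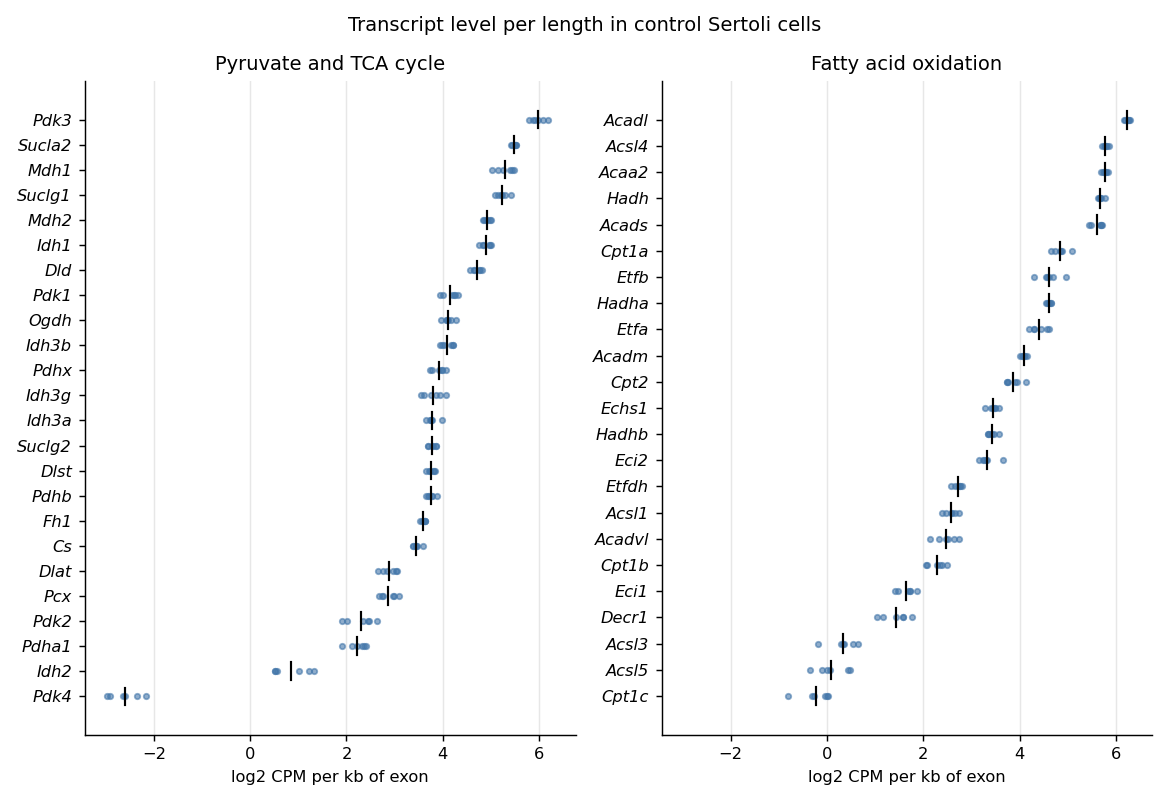
Level per length (log2 CPM per kb of exon, x axis) of the 24 pyruvate and TCA cycle genes (left) and the 23 fatty acid oxidation genes (right) in control Sertoli cells, ordered by their mean. Each dot is 1 of 6 control mice and each bar the mean. *Pdk3* (5.97) and *Acadl* (6.24) stand first and *Pdk4* (-2.61) and *Cpt1c* (-0.23) last.

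Of the pyruvate and TCA cycle genes, *Pdk3* had the highest level per length, 5.97 log2 CPM per kb. It codes for 1 of the kinases that switch off the pyruvate dehydrogenase complex by phosphorylation. *Sucla2*, the ATP-forming subunit of succinyl-CoA ligase, followed with 5.49, then *Mdh1*, the cytosolic malate dehydrogenase, with 5.29 and *Suclg1*, the alpha subunit of succinyl-CoA ligase, with 5.23. *Pdk3* exceeded *Sucla2*, and *Sucla2* exceeded *Mdh1*, in all 6 controls, while *Mdh1* and *Suclg1* differed by less than their spread (higher in 4 of 6). At the other end were *Pdk2* with 2.30, *Pdha1* with 2.22, *Idh2*, the mitochondrial NADP-dependent isocitrate dehydrogenase, with 0.86, and *Pdk4* with -2.61. *Pdk2* and *Pdha1* were not separated (4 of 6 controls), but *Idh2* was below *Pdha1* and above *Pdk4* in each control.

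Among the fatty acid oxidation genes, *Acadl*, the long-chain acyl-CoA dehydrogenase that opens the spiral, came first with 6.24 log2 CPM per kb. *Acsl4*, an acyl-CoA synthetase with a preference for arachidonic acid, followed with 5.78, *Acaa2*, the thiolase that ends the spiral, with 5.76, and *Hadh*, the dehydrogenase of short and medium 3-hydroxyacyl chains, with 5.67. *Acadl* was above *Acsl4* in all 6 controls, and *Acsl4* above *Acaa2* in 4. The lowest were *Decr1*, needed for polyunsaturated chains, with 1.43, *Acsl3* with 0.33, *Acsl5* with 0.09 and *Cpt1c*, the brain-type carnitine palmitoyltransferase, with -0.23. The last 3 were not ordered the same way in all controls.

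Where an enzyme family has several genes, a single gene often held most of the transcript per length. *Pdk3* made up 73.1% ± 2.46 (SD, n = 6) of the pyruvate dehydrogenase kinases in control samples, *Pdk1* 20.9% ± 2.35 and *Pdk2* 5.82% ± 0.88, while *Pdk4*, the kinase known to be induced by fasting, had 0.195% ± 0.04. In single samples *Pdk4* had 3 to 7 counts in controls and 1 to 11 counts in MSUS mice, too few to pass the count filter, so it was not tested across the table. The carnitine palmitoyltransferases 1 were 83.3% ± 2.11 *Cpt1a*, the liver type, 14.2% ± 1.91 *Cpt1b*, the muscle type, and 2.50% ± 0.44 *Cpt1c* (SD, n = 6). Of these, *Cpt1a* and *Cpt1b* code for enzymes that form the acylcarnitines and set the rate of entry into mitochondria. *Acsl4* held 84.7% ± 0.50 of the long-chain acyl-CoA synthetases and *Acsl1*, the main form in liver, fat and muscle, 9.19% ± 0.88, with *Acsl6* at 2.51% ± 0.44, *Acsl3* at 1.96% ± 0.34 and *Acsl5* at 1.67% ± 0.32 (SD, n = 6). Of the acyl-CoA dehydrogenases, *Acadl* had 51.4% ± 1.70, the short-chain *Acads* 33.3% ± 1.5, the medium-chain *Acadm* 11.5% ± 0.66 and the very-long-chain *Acadvl* 3.79% ± 0.51 (SD, n = 6).

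**Figure D2:**
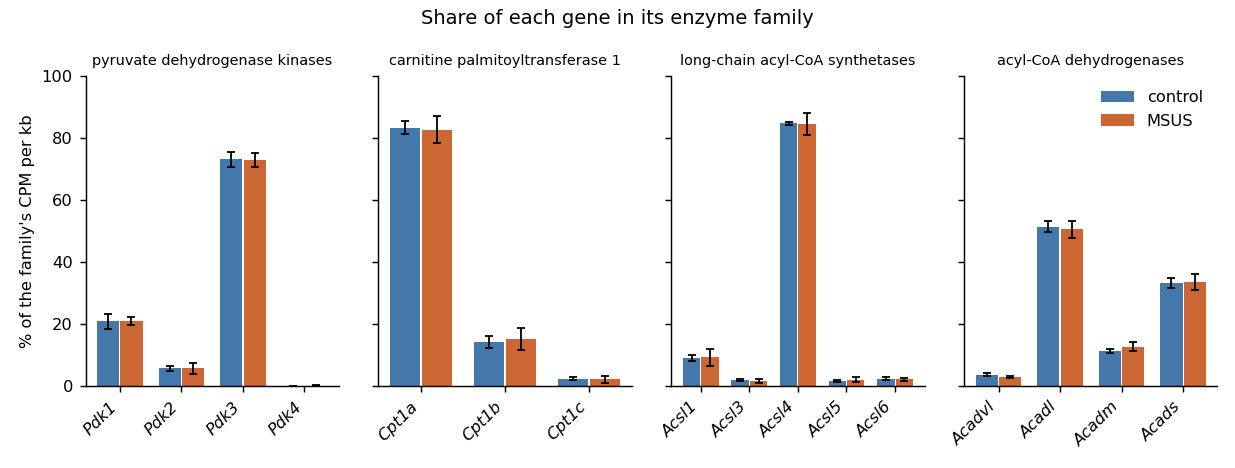
Share of each gene (% of the summed CPM per kb of its enzyme family, y axis) in 4 families, as the mean of 6 control and 7 MSUS mice with the SD as error bar. *Pdk3*, *Cpt1a* and *Acsl4* hold 73.1%, 83.3% and 84.7% in controls, *Acadl* holds 51.4%, and the bars of MSUS mice stand at similar heights.

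Within succinyl-CoA ligase, *Sucla2* held 76.6% ± 0.80 and the GTP-forming *Suclg2* 23.4% ± 0.80 (SD, n = 6) of the beta subunits. *Idh1*, the cytosolic NADP-dependent enzyme, had 39.0% ± 1.09 of the isocitrate dehydrogenase transcripts, the 3 subunits of the mitochondrial NAD-dependent enzyme had 22.3% ± 1.78 (*Idh3b*), 18.3% ± 1.98 (*Idh3g*) and 18.0% ± 0.80 (*Idh3a*), and *Idh2* had 2.42% ± 0.56. In 2 steps a gene outside the 47 had the larger mean share. *Ogdhl*, a paralog of *Ogdh*, the first enzyme of the 2-oxoglutarate dehydrogenase complex, had 72.8% ± 0.93 against 27.2% ± 0.93 for *Ogdh* itself (SD, n = 6), with 71.0% as the lowest control. *Pdha2*, the testis form of the pyruvate dehydrogenase E1 alpha subunit known from meiotic and later germ cells, had 56.3% ± 5.31 against 43.7% ± 5.31 for the X-linked *Pdha1* (SD, n = 6). Single controls had *Pdha2* shares of 46.5% to 62.1% and single MSUS samples of 42.0% to 65.7% (mean 52.7%), so it was not the larger in every sample. Before division by length *Pdha1* had the higher mean in controls, with 4.12 against 3.83 log2 CPM. How much of it came from germ cells in the preparation was not tested.

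The sequences just before the start sites are given for the first gene of each list, for the last of the TCA cycle list and for genes on which the comparison below turns. Stretches without an annotated exon were taken from the 250 bases before the RefSeq start (GRCm38.p6). They are written 5′ to 3′ on the strand of the gene, with matches to a GC box (GGGCGG, bound by Sp1-type factors) or a CCAAT box (CCAAT), on either strand, in capitals. The first is *Acadl* (chr1:66863310-66863559, minus strand), the second *Pdk3* (chrX:93832202-93832400, minus strand) and the third *Pdk4* (chr6:5496310-5496528, minus strand).
Acadl: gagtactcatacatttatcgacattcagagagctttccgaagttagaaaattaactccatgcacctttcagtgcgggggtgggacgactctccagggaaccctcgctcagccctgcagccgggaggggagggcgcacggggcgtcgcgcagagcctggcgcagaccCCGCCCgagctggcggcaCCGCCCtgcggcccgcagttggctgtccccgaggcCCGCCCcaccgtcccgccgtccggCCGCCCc
Pdk3: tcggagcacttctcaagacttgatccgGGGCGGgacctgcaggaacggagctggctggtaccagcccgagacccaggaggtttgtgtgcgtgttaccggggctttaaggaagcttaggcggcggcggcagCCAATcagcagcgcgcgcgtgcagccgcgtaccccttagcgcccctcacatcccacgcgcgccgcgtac
Pdk4: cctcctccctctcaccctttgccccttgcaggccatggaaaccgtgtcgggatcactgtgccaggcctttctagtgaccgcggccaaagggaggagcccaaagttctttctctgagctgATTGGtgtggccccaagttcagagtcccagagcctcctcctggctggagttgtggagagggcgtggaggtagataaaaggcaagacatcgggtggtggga

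*Acadl*, the highest gene per length, had 4 GC boxes, which began 84, 66, 31 and 7 bases before the start. *Pdk3* had a GC box 223 bases and a CCAAT box 120 bases before the start, and *Pdk4* had a CCAAT box 131 bases before it and no GC box. Low genes did not all lack it, since *Cpt1c*, the last of the fatty acid oxidation list, and also *Acsl3* and *Idh2* had both motifs in the window described next. Windows of 300 bases (250 before to 50 after the start) were found for 43 of the 47 genes. A GC box was in 32 of these 43 (74.4%) and in 38.2% of the 27025 genes with a window, and a CCAAT box in 25 (58.1%) and in 41.1%. The TATA box (TATAAA) was in none of the 43 and in 15.7% of all, and the binding element of estrogen-related receptors (TCAAGGTCA) in none and in 0.466%. These are matches of letters only, and the motifs were searched after the levels had been seen. The last element is so rare that its absence from the 43 genes carries no information. The 27025 genes were not limited to those expressed in these cells, so the shares do not set the 47 apart from other expressed genes.

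*Hadha* and *Hadhb* code for the alpha and beta subunits of the mitochondrial trifunctional protein, which carries out the last 3 steps of the spiral on long chains. They lie head to head on chromosome 5, *Hadha* on the minus and *Hadhb* on the plus strand, and their RefSeq starts at 30154980 and 30155253 are 273 bases apart. The 85 bases between the outermost exons annotated for the pair (chr5:30155163-30155247, written on the plus strand, the strand of *Hadhb*) held 2 GC boxes.
Hadhb: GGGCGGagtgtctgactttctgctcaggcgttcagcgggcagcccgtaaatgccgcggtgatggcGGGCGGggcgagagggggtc

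The log2 ratio of *Hadha* to *Hadhb* within a sample was 1.589 ± 0.093 (SD, n = 6) in control and 1.597 ± 0.108 (SD, n = 7) in MSUS samples, a difference of 0.0076 (exact permutation test over 1716 splits, two-sided, p = 0.903, adjusted p = 0.94 over 10 pairs). The range was 1.49 to 1.72 in controls and 1.49 to 1.796 in MSUS mice.

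The study asked whether adult Sertoli cells keep a trace of early life stress, and the comparison of MSUS with control samples was made for each gene. Of the 47 genes, 46 passed the count filter. With limma voom, a linear model on precision-weighted log2 counts, 1 of the 46 had an unadjusted p under 0.05 (2.17%), against 781 of the 14421 genes tested (5.42%). This was *Acadvl*, lower in MSUS samples. At this threshold 2.4% of all genes were lower and 3.02% higher. No gene of the table had an adjusted p under 0.05 with limma voom, and the smallest adjusted p of all was 0.878. The count was also 0 with edgeR's quasi-likelihood test and with DESeq2, which had 793 (5.5%) and 835 (5.79%) genes with an unadjusted p under 0.05. An exact permutation test of the level (log2 CPM, two-sided, 1716 splits), chosen after the data had been seen, is given below for single genes. It compares means of log2 CPM, while the log2 fold changes and SEs printed beside its p are those of limma voom. By this test 2 fatty acid oxidation genes (*Acadvl*, *Hadha*) and 1 TCA cycle gene (*Idh3a*) had an unadjusted p under 0.05, all lower in MSUS samples, against 5.6% of all genes, and again no gene of the table had an adjusted p under 0.05. For none of the 46 did the control and MSUS samples separate without overlap, which 0.139% of all genes did.

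Differences were small in both pathways. Of the 23 tested pyruvate and TCA cycle genes 17 were lower and 6 higher in MSUS samples, with a median log2 fold change of -0.04 and a range from -0.28 to 0.15. Of the 23 fatty acid oxidation genes 14 were lower and 9 higher, with a median of -0.06 and a range from -0.47 to 0.29. Over all genes tested the median was -0.0018 and 50.5% were lower. With *Malat1* as a covariate 11 of the 23 TCA cycle genes were lower in place of 17, with a median of 0.00145, and 13 of the 23 fatty acid oxidation genes in place of 14, with a median of -0.0116. With the mitochondrially encoded share these counts were 13 and 14. Both covariates had a higher mean in MSUS than in control samples, so in these fits their part and that of the group cannot be told apart. The mean level of the TCA cycle genes was 5.63 ± 0.06 (SD, n = 6) in control and 5.59 ± 0.03 (SD, n = 7) in MSUS samples, and that of the fatty acid oxidation genes 5.41 ± 0.04 and 5.36 ± 0.05.

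The intervals show how large a difference could have gone unseen. For all 46 genes the 95% interval of the fold change lay within 2-fold in either direction, and for 40 within 1.5-fold, against 12875 and 10260 of the 14421 genes tested. The other 6 were *Idh2*, *Acadvl*, *Eci1*, *Acsl3*, *Acsl5* and *Cpt1c*, which had between 22 and 241 counts per sample. The median SD between control mice was 0.12 log2 for the TCA cycle genes and 0.15 for the fatty acid oxidation genes, and 0.20 for all genes.

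**Figure D3:**
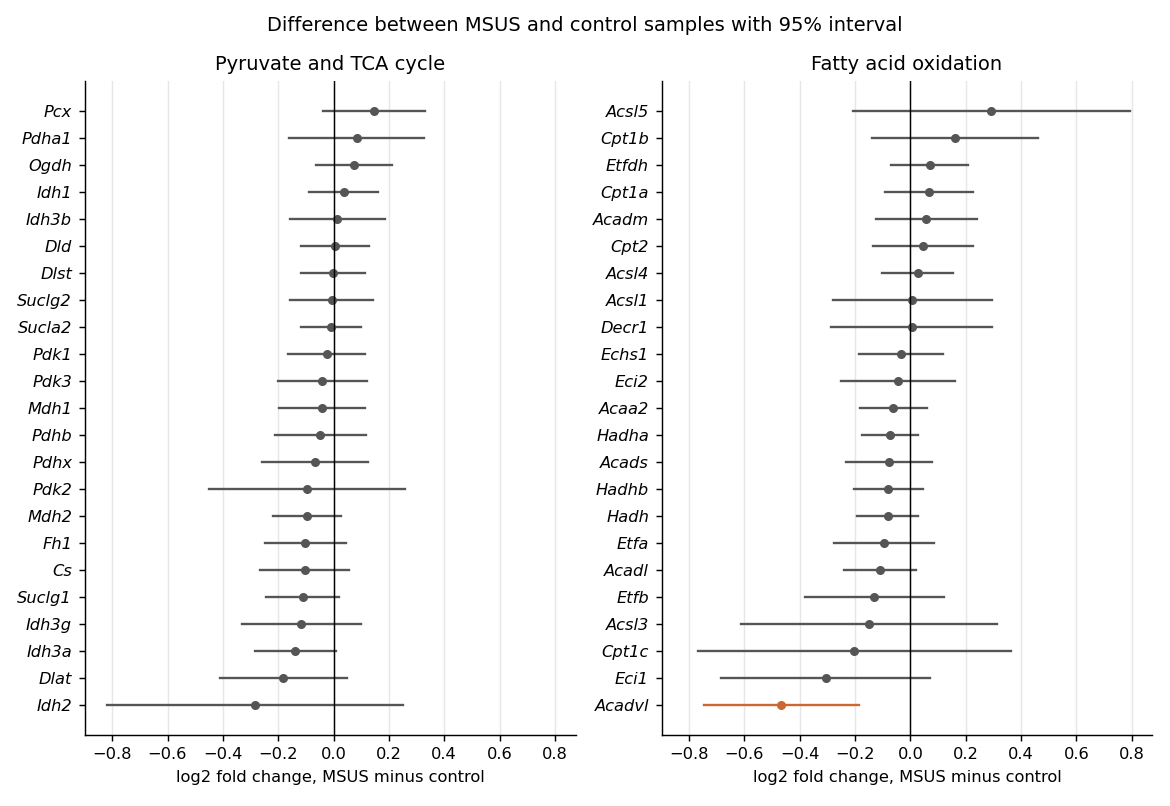
Log2 fold change of MSUS against control samples (x axis, with its 95% interval from limma voom) for 23 pyruvate and TCA cycle genes (left) and 23 fatty acid oxidation genes (right), ordered by size. *Acadvl* (orange, -0.47) is the single gene with p under 0.05, and the intervals of all others hold 0.

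*Acadvl*, on chromosome 11 of GRCm38 from 70010183 to 70015411 on the minus strand, codes for the very-long-chain acyl-CoA dehydrogenase of the inner mitochondrial membrane. Its level (log2 CPM) had a lowest, median and highest value of 3.56, 3.91 and 4.17 in the control samples and of 3.08, 3.51 and 3.65 in the MSUS samples. Each MSUS sample was below the control mean and 5 of the 7 were below every control, while the highest 2 overlapped with the lowest control. The log2 fold change was -0.47 with an SE of 0.13 (95% interval -0.75 to -0.19, limma voom adjusted p = 0.878, exact p = 0.0035 with an adjusted p = 0.863). It rested on 92 to 241 counts per sample. When each mouse was left out in turn the value ranged from -0.55 to -0.40 and its p stayed under 0.05, but with the *Malat1* level as a covariate it was -0.28 and its p was over 0.05. The *Malat1* level was itself higher in mean in MSUS samples, so its part and that of the group cannot be told apart. As a share of the 4 acyl-CoA dehydrogenases per length, *Acadvl* had 3.79% ± 0.51 (SD, n = 6) in control and 2.90% ± 0.27 (SD, n = 7) in MSUS samples.

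The exons of *Acadvl* overlap over 1151 bases (42.9% of their length) with exons annotated to *Dvl2*, a gene of Wnt signalling on the opposite strand. The libraries keep the strand, but the strand setting of the counting is not given in the sources used here. *Dvl2* had a log2 fold change of 0.05 (95% interval -0.20 to 0.30). The 250 bases before the RefSeq start of *Acadvl* (chr11:70015429-70015678, minus strand) held none of the 4 motifs.
Acadvl: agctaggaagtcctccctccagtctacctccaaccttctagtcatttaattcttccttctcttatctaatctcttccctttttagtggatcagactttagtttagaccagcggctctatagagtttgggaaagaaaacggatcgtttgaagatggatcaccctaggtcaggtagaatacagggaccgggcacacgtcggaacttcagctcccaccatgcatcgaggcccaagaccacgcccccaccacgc

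Each of the other acyl-CoA dehydrogenases of the list had an unadjusted limma voom p over 0.05. *Acadl* had levels of 7.17, 7.25 and 7.30 (lowest, median, highest) in control and of 6.93, 7.11 and 7.33 in MSUS samples, where 5 of 7 mice were below every control and 1 was above every control. Its log2 fold change was -0.11 with an SE of 0.06 (limma voom, exact p = 0.0612). *Acadm* had -0.13 to 0.24 as the 95% interval around a log2 fold change of 0.06, and *Acads* -0.23 to 0.08 around -0.08. The spread of *Acadm* was wider in MSUS (SD 0.22) than in control samples (SD 0.05), with 3 MSUS mice below and 3 above all controls.

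The later steps of the spiral had negative differences of small size, and of these *Hadha* alone had an exact p under 0.05. The limma voom p of *Hadha* was over 0.05. None of the 23 alternatives to that fit brought it under 0.05 (lowest p 0.0892, limma voom without MSUS mouse 11). *Hadh* had a log2 fold change of -0.08 with an SE of 0.05 (exact p = 0.0559), *Hadha* of -0.08 with an SE of 0.05 (exact p = 0.0309), *Hadhb* of -0.08 with an SE of 0.06 (exact p = 0.0635) and *Acaa2* of -0.06 with an SE of 0.06 (exact p = 0.137). For *Hadha* 5 of 7 MSUS mice were below every control, with 7.68, 7.73 and 7.78 as the lowest, median and highest control and 7.56, 7.68 and 7.74 in MSUS samples. *Hadh* had 7.94, 7.98 and 8.09 in controls and 7.80, 7.89 and 8.04 in MSUS samples, again with 5 of 7 below every control. *Echs1*, the enoyl-CoA hydratase, had -0.03 (95% interval -0.19 to 0.12).

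The isomerases and the reductase that prepare unsaturated chains had lower counts and wider intervals. *Eci1*, an enoyl-CoA isomerase, had levels of 2.49, 2.79 and 2.97 in control and of 2.05, 2.49 and 3.07 in MSUS samples, with 3 MSUS mice below and 1 above all controls. Its log2 fold change of -0.31 (SE 0.18, 44 to 98 counts per sample) had exact p = 0.1, and without MSUS mouse 1 it was -0.42 with a limma voom p under 0.05. *Eci2* had -0.04 (95% interval -0.25 to 0.16) and *Decr1* 0.0049 (95% interval -0.29 to 0.29). The electron carriers that pass electrons on to ubiquinone had -0.10 (*Etfa*), -0.13 (*Etfb*) and 0.07 (*Etfdh*), each with a 95% interval that held 0.

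**Figure D4:**
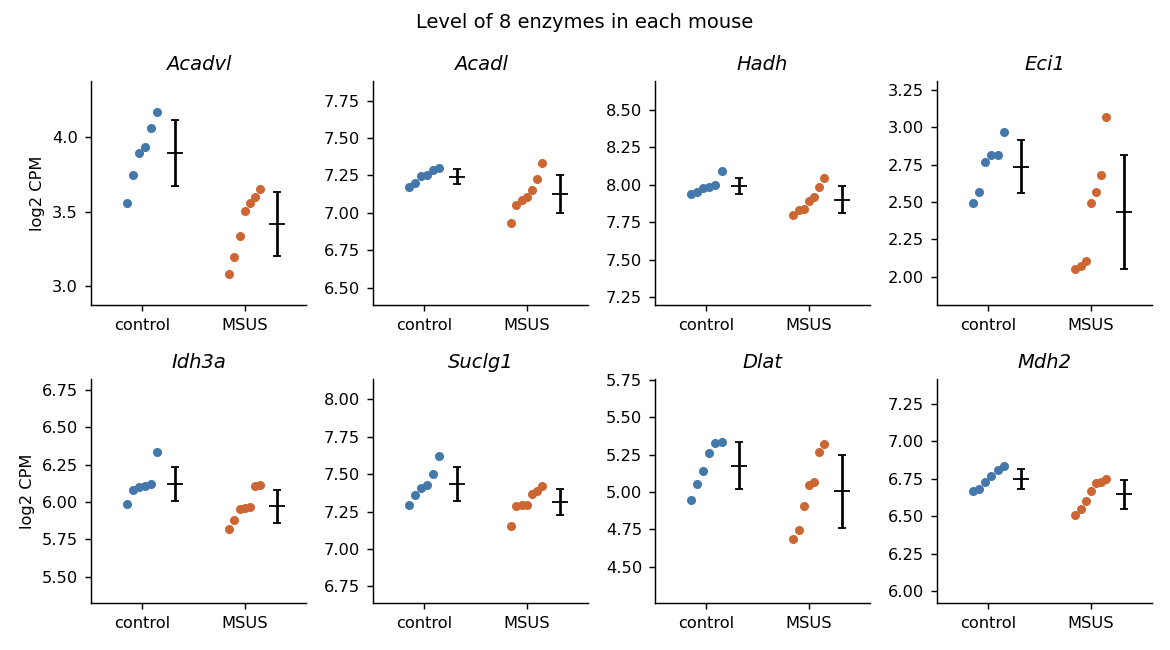
Level (log2 CPM, y axis, each panel spanning the same range) of 8 enzymes in 6 control (blue) and 7 MSUS (orange) mice, 1 dot a mouse, with the mean and SD beside the dots. *Acadvl* is lower in all 7 MSUS mice than the control mean, and in each of the 8 panels the groups overlap.

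For activation and import of fatty acids the differences were smaller than the spread between mice. *Cpt1a* had levels of 7.59, 7.78 and 8.03 in control and of 7.68, 7.82 and 8.06 in MSUS samples (log2 fold change 0.07, SE 0.08, exact p = 0.451). *Cpt2*, which frees the acyl-CoA again inside mitochondria, had 0.04 (SE 0.09, exact p = 0.617), *Cpt1b* 0.16 (SE 0.14, exact p = 0.314) and *Cpt1c* -0.20 (SE 0.27, exact p = 0.549). For *Cpt1b* 81.4% of the exon length is shared with the annotated gene *Gm44502* on the same strand, and 53.0% of *Etfb* with *Gm45233*, so the counts of both depend on how reads were divided. *Acsl4* had a log2 fold change of 0.03 (95% interval -0.10 to 0.15), *Acsl3* of -0.15 (-0.61 to 0.31) and *Acsl5* of 0.29 (-0.21 to 0.79).

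The mean of *Acsl1* was close in the groups (log2 fold change 0.0067, 95% interval -0.28 to 0.29), but it was more variable among MSUS mice. Its levels were 5.78, 5.97 and 6.13 (lowest, median, highest) in control and 5.46, 5.99 and 6.49 in MSUS samples. The order of the samples was nearly that of the elongated spermatid markers: MSUS mouse 11 had the highest *Acsl1* (6.49) and the highest marker mean (8.55), and MSUS mice 23 and 26 had the lowest *Acsl1* (5.46 and 5.52) with marker means of 7.79 and 7.26. After subtraction of the group means, Pearson's r was 0.883 (permutation p = 1e-05, the smallest that 100000 resamples can give, adjusted p = 0.00094 over 94 relations) and Spearman's rho 0.967 (permutation p = 1e-05, adjusted p = 0.00094) over 13 mice. Without the 2 mice farthest from the median marker deviation r was 0.912, and it was 0.855 within control and 0.898 within MSUS samples. *Acsl1* was the only 1 of the 47 genes whose r with these markers passed an adjusted p of 0.05. Correlations with the markers were computed for the 47 genes alone, so the share of all genes that follow them is not known. *Acsl4* had r = -0.596 with the markers (permutation p = 0.034, adjusted p = 0.262), -0.256 without the 2 farthest mice. With the markers as a covariate the log2 fold change of *Acsl1* was -0.12 (limma voom, p over 0.05). Whether *Acsl1* transcripts came from germ cells in the preparation was not tested.

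**Figure D5:**
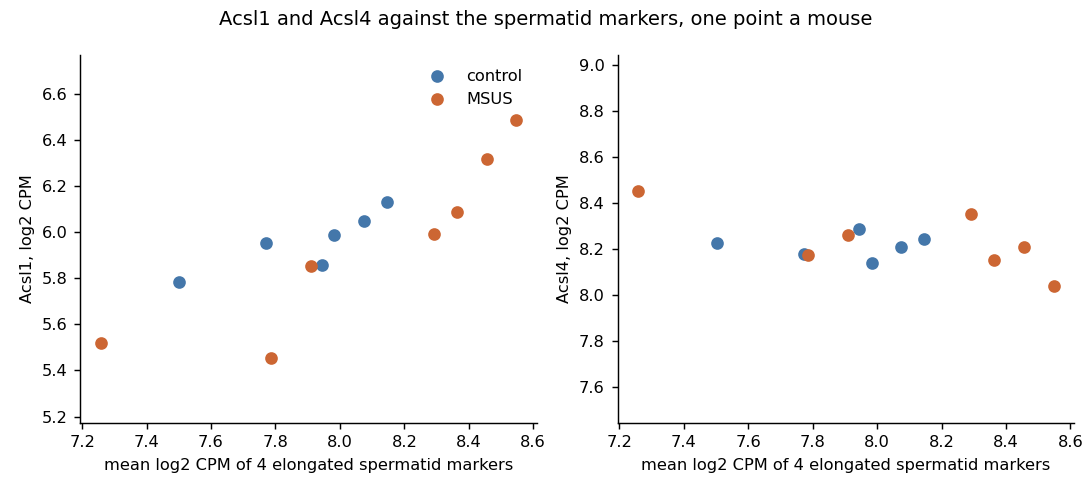
Level (log2 CPM, y axis) of *Acsl1* (left) and *Acsl4* (right) against the mean level of the 4 elongated spermatid markers (log2 CPM, x axis) in 6 control (blue) and 7 MSUS (orange) mice. *Acsl1* goes up with the markers (r = 0.883 after subtraction of the group means), from 5.46 to 6.49 in MSUS mice. *Acsl4* has r = -0.596 (permutation, adjusted p = 0.262).

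Entry of pyruvate into the cycle was covered by 6 genes. *Pdha1* had a log2 fold change of 0.08 (95% interval -0.16 to 0.33), *Pdhb*, the E1 beta subunit, of -0.05 (-0.21 to 0.12), *Dlat*, the acetyltransferase core, of -0.18 (-0.41 to 0.05), *Dld*, the lipoamide dehydrogenase shared with other complexes, of 0.0054 (-0.12 to 0.13) and *Pdhx*, which anchors *Dld* to the core, of -0.07 (-0.26 to 0.13). *Dlat* had levels of 4.94, 5.20 and 5.33 in control and of 4.68, 5.05 and 5.32 in MSUS samples, with 3 of 7 MSUS mice below every control (exact p = 0.161). *Pcx*, pyruvate carboxylase, which refills the cycle with oxaloacetate, had the largest increase among the tested genes of the list, 0.15 with an SE of 0.09 (exact p = 0.103). Its levels were 4.92, 5.11 and 5.34 in controls and 5.07, 5.26 and 5.43 in MSUS samples, with 3 of 7 above every control. The kinases had log2 fold changes of -0.03 (*Pdk1*, 95% interval -0.17 to 0.12), -0.10 (*Pdk2*, -0.45 to 0.26) and -0.04 (*Pdk3*, -0.20 to 0.12).

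Among the tested genes of the pyruvate and TCA cycle list *Idh3a*, the catalytic subunit of the NAD-dependent isocitrate dehydrogenase, had the smallest p by both tests. Its levels were 5.98, 6.10 and 6.33 in control and 5.82, 5.96 and 6.12 in MSUS samples. All 7 MSUS mice were below the control mean and 5 of them below every control. The log2 fold change was -0.14 with an SE of 0.07 (95% interval -0.28 to 0.01, limma voom adjusted p = 0.878, exact p = 0.0321 with an adjusted p = 0.863). It was -0.17 without control mouse 10 and -0.10 without control mouse 24, and -0.05 with *Malat1* as a covariate (limma voom, p over 0.05). The regulatory subunits had 0.01 (*Idh3b*, 95% interval -0.16 to 0.19) and -0.12 (*Idh3g*, -0.33 to 0.10). The log2 ratio of *Idh3a* to *Idh3b* within a sample was 0.26 ± 0.11 (SD, n = 6) in control and 0.10 ± 0.14 (SD, n = 7) in MSUS samples, which ranged from 0.12 to 0.40 and from -0.03 to 0.35. The difference of -0.16 had p = 0.0525 in the exact permutation test (two-sided) and 0.525 when adjusted over the 10 ratios of partner enzymes.

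Of the genes around it, *Cs*, citrate synthase, had a log2 fold change of -0.10 (SE 0.08, exact p = 0.161), with 4 of 7 MSUS mice below every control. *Ogdh* had 0.07 (SE 0.07, exact p = 0.29) and *Dlst*, the core of the same complex, -0.0013 (SE 0.05, exact p = 0.848). *Suclg1* had levels of 7.29, 7.42 and 7.62 in control and of 7.16, 7.29 and 7.42 in MSUS samples, all 7 below the control mean and 3 below every control (log2 fold change -0.11, SE 0.06, exact p = 0.0565). Its partners *Sucla2* and *Suclg2* had -0.01 (95% intervals -0.12 to 0.10 and -0.16 to 0.14). *Fh1*, fumarase, had -0.10 (SE 0.07, exact p = 0.0769), with 5 MSUS mice below and 1 above all controls. *Mdh2*, the mitochondrial malate dehydrogenase, had 6.67, 6.75 and 6.83 in control and 6.51, 6.67 and 6.75 in MSUS samples, with 4 of 7 below every control (-0.10, SE 0.06, exact p = 0.0524), and *Mdh1* had -0.04 (SE 0.07, exact p = 0.481). With *Malat1* as a covariate the log2 fold change was -0.0061 for *Suclg1* and -0.0096 for *Mdh2* (limma voom), and with the mitochondrially encoded share it was -0.045 and -0.061. *Idh1* had 0.04 (95% interval -0.09 to 0.16) and *Idh2* -0.28 (-0.82 to 0.25, 23 to 85 counts per sample).

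The balance between partner enzymes was compared as a ratio within each sample, which does not depend on the scaling of libraries. Besides *Idh3a* to *Idh3b* and *Hadha* to *Hadhb*, 8 ratios were tested, and each had an adjusted p of 0.94 (exact permutation tests, two-sided). The ratio of *Pdk4* to *Pdha1* rests on the 1 to 11 counts of *Pdk4* and on the prior count of 2. The differences (MSUS minus control, log2) were 0.11 for *Pdha1* to *Pdhb*, 0.09 for *Pcx* to *Pdha1*, 0.12 for *Pdk4* to *Pdha1*, 0.05 for *Mdh1* to *Mdh2*, -0.0032 for *Sucla2* to *Suclg2*, 0.04 for *Etfa* to *Etfb*, 0.02 for *Cpt1a* to *Cpt2* and -0.06 for *Acsl1* to *Cpt1a*.

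The 4 further lists cover the rest of the pathways. Of 30 other TCA cycle and pyruvate genes, 3 were lower and 1 higher with a limma voom p under 0.05, which is 13.3% against 5.42% of all genes. *Sdhd* and *Sdhc*, the membrane anchors of succinate dehydrogenase, had log2 fold changes of -0.20 (SE 0.09, exact p = 0.0385) and -0.19 (SE 0.09, exact p = 0.0379), whereas the catalytic subunits had -0.0047 (*Sdha*, 95% interval -0.13 to 0.12) and -0.02 (*Sdhb*, -0.23 to 0.20). *Slc25a10*, the dicarboxylate carrier, had -0.19 (exact p = 0.0239) and *Ogdhl* 0.13 (SE 0.06, exact p = 0.0326, 5 of 7 MSUS mice above every control). Of 28 other mitochondrial fatty acid genes, 1 was higher and 1 lower (7.14%). *Acsf2*, a medium-chain acyl-CoA synthetase, had 0.32 (SE 0.13, exact p = 0.0571), and *Acad11*, an acyl-CoA dehydrogenase of long chains, -0.21 (SE 0.09, exact p = 0.0326), with 6 of 7 MSUS mice below every control. By the exact test alone *Nudt19* (difference of means -0.152, exact p = 0.0268) and *Hsd17b10* (-0.198, exact p = 0.0332) were lower as well.

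None of the 18 peroxisomal genes that passed the count filter, of 20 listed, had p under 0.05, and their median log2 fold change was 0.0016. Of 25 tested genes of lipid supply and regulation, of 28 listed, 1 did, *Plin3*, a lipid droplet coat protein (-0.16, SE 0.07, exact p = 0.0192, 5 of 7 MSUS mice below every control). The 7 genes of the further lists with a limma voom p under 0.05 each had p over 0.05 with the *Malat1* level and with the mitochondrially encoded share as a covariate. Of 23 alternatives to the limma voom fit, counting those that leave out a mouse, p stayed under 0.05 in 19 for *Acsf2*, 17 for *Acad11*, 14 for *Sdhd* and *Plin3*, 13 for *Sdhc*, 9 for *Ogdhl* and 7 for *Slc25a10*. *Slc25a10* had p over 0.05 also with edgeR's quasi-likelihood test and with DESeq2, and *Ogdhl* with library size alone.

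The *Malat1* level also moved with several TCA cycle genes across mice, by r most strongly with *Sucla2*. After subtraction of the group means, *Sucla2* had r = -0.845 with *Malat1* over 13 mice (permutation p = 0.00037, adjusted p = 0.0174 over 94 relations) and rho = -0.775 (permutation p = 0.00287, adjusted p = 0.0674). The r was -0.77 without the 2 mice farthest from the median, -0.855 within control and -0.943 within MSUS samples. *Sucla2* was the only 1 of the 47 genes to pass an adjusted p of 0.05 by r, and 34 of the 47 had a negative r, with a median of -0.212. Close to it by r were *Idh3b* (-0.778, permutation, adjusted p = 0.0608), *Suclg1* (-0.738, 0.0716), *Mdh1* (-0.737, 0.0716) and *Mdh2* (-0.727, 0.0992). By rank, *Idh3b* and *Mdh1* each had rho = -0.786, slightly stronger than *Sucla2*, with the same adjusted p of 0.0674 (permutation). The correlations with *Malat1* were computed for the 47 genes alone. What share of all genes goes with it is therefore not known, and these counts cannot be read as particular to the 47. The groups overlapped in *Sucla2* itself, with 7.42 to 7.53 in controls and 7.35 to 7.53 in MSUS samples.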

How the data were processed

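RNA of sorted Sertoli cells from 6 control and 7 MSUS mice was sequenced from 5 ng with a stranded total RNA kit. The authors trimmed the reads (Trim Galore 0.6.5) and assigned them to GENCODE vM23 transcripts with Salmon 1.1.0. The deposited values are estimated counts per gene, without normalization. Here they were rounded, and the 27170 features with no gene name (20.7% to 26.7% of the counts) were left out. The table had no column without a sample. Any 2 of the 13 samples (78 pairs) differed by 5.95 to 47.1 times sampling noise, so none was deposited more than once.

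Genes passing filterByExpr were tested with limma 3.58.1 voom after TMM scaling (R 4.3.3, edgeR 4.0.16), the method the study states. P-values are two-sided and Benjamini-Hochberg adjusted over all 14421 genes. For levels a prior count of 2 was used, and lengths and coordinates come from GENCODE vM21 (GRCm38). Ratios and, as an alternative added after the data had been seen, single genes were compared by exact permutation over 1716 splits (smallest p 0.000583), correlations by 100000 permutations. The scripts were checked on simulated counts.

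The 47 genes and all lists were chosen with earlier results of these data known. Named were genes with p under 0.05, the 5 smallest p and the 4 highest and 4 lowest levels per length in each list, enzymes of control points and of partner pairs, and up to 4 genes with p under 0.05 in each further list. Other members, *Nudt19*, *Hsd17b10*, the families, the promoters printed, the correlations and the motifs were chosen after values were seen. Estimates were not whole numbers (tolerance 0.005) in at least 1 sample for 20 of the 47 genes and in all samples for 4, and exons of 14 overlap another gene, 3 of them on the same strand. Alternatives were edgeR's quasi-likelihood test, DESeq2 1.42.0, its size factors, library size alone, other count filters, the unnamed features kept, 3 covariates (elongated spermatid markers, mitochondrially encoded share, *Malat1*), the longest transcript as length, and leaving out each mouse.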

Additional observations from a re-analysis of the deposited data

Results flagged for a closer look

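Among 94 groups of values (the 47 genes in each group of mice), 4 held a mouse that stood apart from the rest of its group by Dixon's 95% criterion, and chance gives about 1 in 20 groups, which is 4.7 here. *Idh1* had 6.522 log2 CPM in MSUS mouse 1, with 6.333 to 6.407 in the other MSUS mice. *Pdk3* had 7.593 in the same mouse, with 7.146 to 7.317 in the others. *Acads* had 7.003 in MSUS mouse 23, with 6.572 to 6.724 in the others. *Eci2* had 6.123 in control mouse 14, with 5.622 to 5.798 in the other controls. Without MSUS mouse 1 the log2 fold change of *Pdk3* was -0.09 in place of -0.04 (limma voom).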

How the results depend on the processing

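No paired analysis was possible because the control and MSUS mice share no replicate number. The lower *Acadvl* kept p under 0.05 in every alternative but the *Malat1* covariate. The count of pyruvate and TCA cycle genes with p under 0.05, 0 in the report, was 2 with library size alone (*Idh3a*, *Suclg1*), 1 with the spermatid markers (*Pcx*), 1 with *Malat1* as covariate (*Idh3b*, higher) and 1 with the exact permutation test (*Idh3a*). It ranged from 0 to 2 with each mouse left out: 2 without control mouse 10 (*Idh3a*, *Suclg1*) or MSUS mouse 11 (*Idh3a*, *Dlat*), and 1 without control mouse 22 (*Pcx*) or MSUS mouse 26 (*Idh3a*). The count of fatty acid oxidation genes, 1 in the report, was 2 with the spermatid markers (*Acadl* added), 2 with the exact permutation test (*Hadha* added) and 0 with *Malat1*. It ranged from 1 to 3, with 3 without MSUS mouse 1 (*Eci1* and *Hadh* added) and 2 without MSUS mouse 13 (*Acadl* added). With *Malat1* the median of the fatty acid oxidation genes was -0.0116 and that of the TCA cycle genes 0.00145, against -0.0418 in the report. With the longest transcript as length the median levels were 4.539 and 4.267, and at least 3 of the 4 highest and lowest of each list were the same genes. The 781 genes of the whole table with p under 0.05 (5.42%) were 399 (2.77%) with the mitochondrial share and 395 (2.74%) with *Malat1*. They were 1172 (8.13%) with the spermatid markers, 1182 (4.99%) without a count filter and 794 (5.51%) with library size alone. With a mouse left out, the share of all genes went from 3.74% (without MSUS mouse 5) to 7.7% (without control mouse 10). It was 7.35% without MSUS mouse 11 and 7.15% without MSUS mouse 13. Without control mouse 22, MSUS mouse 1 and MSUS mouse 26 it was 5.53%, 5.42% and 5.02%.

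Changes of sign were seen in genes that had limma voom p over 0.05 in the report. *Decr1* had -0.0139 with edgeR, -0.00868 with DESeq2, -0.0106 with library size, -0.00141 without a filter, -0.0022 with unnamed features, -0.0268 with the mitochondrial share, -0.0116 with *Malat1* and -0.00698 as a difference of mean log2 CPM. *Acsl1* had -0.0126 with library size, -0.00134 with unnamed features, -0.118 with the spermatid markers and -0.000146 as a difference of mean log2 CPM, and *Idh3b* had -0.004 with library size and -0.0176 with the spermatid markers. *Suclg2* had 0.00195 with DESeq2. With the mitochondrial share *Acsl3* had 0.0534, *Pdk1* 0.00312, *Sucla2* 0.0359 and *Suclg2* 0.0439. With *Malat1* *Acsl3* had 0.00221, *Acsl4* -0.0108, *Etfb* 0.0153, *Mdh1* 0.092, *Pdk1* 0.0284, *Pdk3* 0.00145, *Sucla2* 0.0676 and *Suclg2* 0.0806. With 1 mouse left out the ranges were -0.0811 to 0.0902 for *Acsl1*, -0.00445 to 0.0581 for *Acsl4*, -0.0611 to 0.0614 for *Decr1*, -0.0325 to 0.0554 for *Idh3b*, -0.0629 to 0.00309 for *Pdk1*, -0.196 to 0.0243 for *Pdk2*, -0.0925 to 0.00374 for *Pdk3*, -0.0249 to 0.00902 for *Sucla2* and -0.0369 to 0.0217 for *Suclg2*. The differences of ratios ranged from -0.0256 to 0.0342 (*Hadha* to *Hadhb*), -0.0209 to 0.134 (*Etfa* to *Etfb*), -0.0169 to 0.0198 (*Sucla2* to *Suclg2*), -0.0325 to 0.302 (*Pdk4* to *Pdha1*), -0.0271 to 0.0621 (*Cpt1a* to *Cpt2*) and -0.177 to 0.0496 (*Acsl1* to *Cpt1a*). The cause of these changes was not tested.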

Other observations

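A few genes of the wider pathways, picked after their values were seen, stood out by single mice or by very low counts. *Nnt*, the proton-driven transhydrogenase that makes mitochondrial NADPH and that is known to carry a deletion in C57BL/6J mice, had a level of 1.80 log2 CPM (36 counts) in MSUS mouse 11, with 3.998 to 4.65 in the other MSUS mice and 3.70 to 4.79 in controls. The log2 fold change of *Nnt* was -0.43 with an SE of 0.34 (limma voom, exact p = 0.459). *Ppargc1a*, a coactivator of mitochondrial genes, had 6 to 22 counts in control mice and 1 to 7 counts in MSUS mice, with 4 of 7 MSUS mice below every control, and did not pass the count filter, so it was not tested. *Ppara*, the receptor for fatty acids, had 10 to 43 counts and a log2 fold change of 0.56 with an SE of 0.29 (limma voom, exact p = 0.0519). *Mpc1*, a subunit of the mitochondrial pyruvate carrier, was below the control mean in all 7 MSUS mice (log2 fold change -0.18, SE 0.11, exact p = 0.0758).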
